A study of Mus musculus with 24 samples.

Results

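The knockout arrays of this series form 2 sets, and the comparison described here sets all 8 knockout arrays with replicate number 1 or 2 against all 8 with number 3 or 4, 16 of the 24 arrays in all. The sets were chosen by the numbers in the sample titles alone. The study hybridised total RNA from the jaws of C57B6 mouse embryos, labelled embryonic day 12.5, to Affymetrix Mouse430_2 arrays. Each mandible (lower jaw) and maxilla (upper jaw) was cut into a proximal and a distal end, so that each set holds 2 arrays of each of 4 parts. Both knockout sets carry the same label, Alk5 knockout: Wnt1-Cre, which is active in the cranial neural crest, deletes floxed Alk5 (Tgfbr1, the type I TGF-beta receptor), and the mutants were recognised by a cleft palate and a defect of the skull vault. Blood, the endothelium of vessels, skeletal muscle and surface epithelium of the jaw do not come from the crest and keep the gene in this model. The 8 control arrays, numbered 1 and 2, are from littermates at the same labelled stage; their genotype is not given beyond the word control. The labels do not say which arrays share an embryo, or whether embryos were pooled, so the p-values below measure only the spread between these arrays.

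At this stage the jaw primordia are growing masses of crest-derived mesenchyme under an epithelium, in which cartilage, bone, tendon and muscle are beginning to form. RNA-binding proteins of the Lin28 family hold back the let-7 microRNAs in young embryonic cells and decline as development goes on, while let-7 rises; in blood, primitive red cells with embryonic globins are replaced by definitive red cells with adult globins. The 3′ labelling used for these arrays copies RNA from its poly-A tail, so that broken RNA gives less signal from probes near the 5′ end of a transcript than from probes near the 3′ end.

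The 2 sets stood apart in the measures of the arrays themselves. The 3′ excess, here the log2 level of the 3′ probe set minus that of the 5′ probe set, averaged over the Gapdh and beta-actin quality probe sets, was 1.13 ± 0.28 in knockouts 1 and 2, 0.08 ± 0.06 in knockouts 3 and 4 and 0.18 ± 0.04 in controls (mean ± SD, n = 8 each). It lay between 0.71 and 1.498 in the first of these groups and did not overlap the others. The 5′ probe sets of both genes were lower in the first group. The beta-actin 5′ probe set averaged 13.04 (log2) in knockouts 1 and 2, 14.29 in knockouts 3 and 4 and 14.26 in controls, while its 3′ probe set averaged 14.43, 14.46 and 14.48 in the same groups. The Gapdh 5′ probe set averaged 13.28 in knockouts 1 and 2, 13.97 in knockouts 3 and 4 and 13.91 in controls, and its 3′ probe set was also somewhat higher in the first group, at 14.15, against 13.95 in knockouts 3 and 4 and 14.04 in controls. The added bacterial poly-A control RNAs were mixed. The 3′ excess of Dap was 1.23 in knockouts 1 and 2, 1.93 in knockouts 3 and 4 and 1.76 in controls, and that of Phe was 1.07, 1.56 and 1.53 in the same order. Thr ran the other way between the knockout sets, at 2.11, 1.71 and 2.24, and Lys was at 0.70, 0.71 and 0.85.

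The hybridisation controls, RNAs added just before the arrays, averaged 11.95 ± 0.27 (log2) in knockouts 1 and 2, 9.49 ± 0.15 in knockouts 3 and 4 and 10.94 ± 0.34 in controls, again with no overlap between the 2 knockout sets. Within knockouts 1 and 2 the 3′ excess was above 1 on 6 arrays and under 1 on 2, the proximal maxilla of number 1 (0.78) and the distal maxilla of number 2 (0.71). Labelled stage and genotype are the same in both sets, so embryo, handling, RNA quality and hybridisation all change with the replicate number and cannot be told apart by it.

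**Figure D1:**
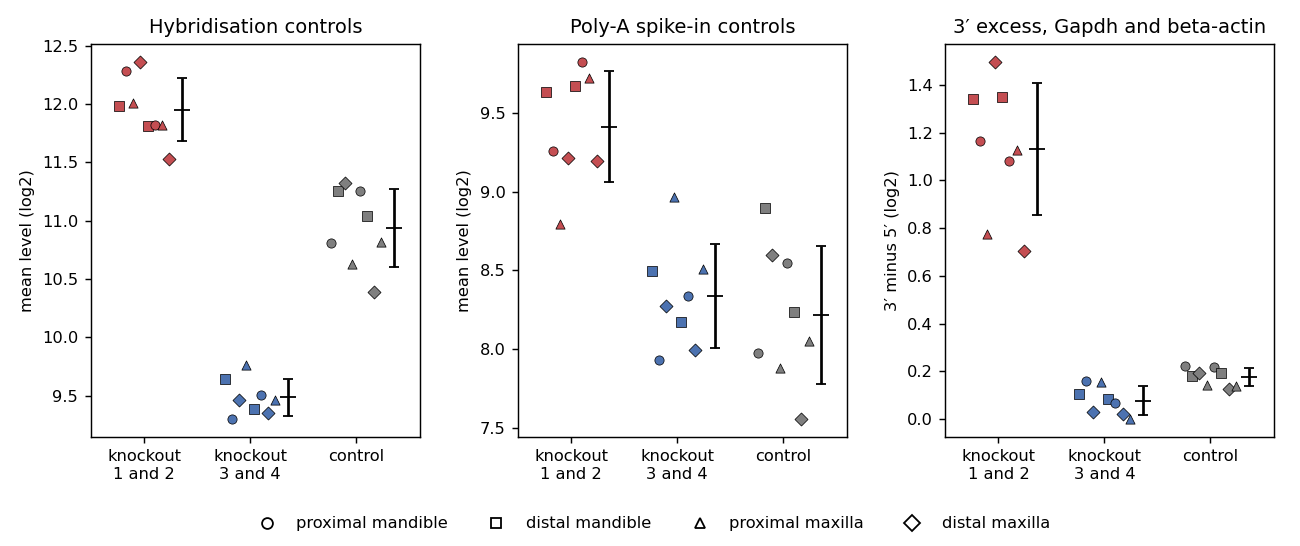
Each point is 1 array (marker shape gives the part), and the bar beside each group is the mean ± SD of its 8 arrays. From left to right the panels show the hybridisation controls and the poly-A spike-in controls (mean log2 level) and the 3′ excess of Gapdh and beta-actin (log2); knockouts 1 and 2 lie above both other groups in the left and right panels, at 11.95 and 1.13 on average.

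Other checks of the labels gave the following. Xist and Kdm5d split each knockout set into 4 female and 4 male arrays and called all 8 control arrays male; in knockouts 1 and 2 the proximal maxilla arrays had the opposite sex to the other 3 parts of the same number. Hand2, a transcription factor of the lower jaw, ranged from 11.39 to 12.70 (log2) in the mandible and from 5.77 to 7.27 in the maxilla of knockouts 1 and 2, from 10.46 to 13.11 and from 8.13 to 8.86 in those of knockouts 3 and 4, and from 10.80 to 13.05 and from 6.65 to 8.71 in those of controls. The mesenchyme markers Prrx1, Twist1 and Pdgfra were above 11 (log2) on every array, but other markers of this tissue were not. The lowest value of Prrx2 was 9.60, in knockouts 1 and 2, and that of Msx1 was 9.12, in controls. Alx4 ran from 5.92 to 6.72 in knockouts 1 and 2, 5.86 to 7.51 in knockouts 3 and 4, and 6.02 to 7.47 in controls. Alx4 was above the detection filter (log2 6.07) on 6 arrays of each knockout set and on 7 control arrays. The brightest Tgfbr1 probe set averaged 12.34 in knockouts 1 and 2, 12.44 in knockouts 3 and 4 and 12.31 in controls (difference -0.10, adjusted p = 0.168). The other Tgfbr1 probe sets were dimmer and differed: one averaged 5.10 in knockouts 1 and 2, 7.63 in knockouts 3 and 4 and 7.03 in controls (-2.54, adjusted p = 6.42e-08), and another 5.95, 6.75 and 7.57 (-0.80, adjusted p = 8.58e-05). Where these probe sets lie relative to the deleted part is not given in the sources used here, so none of them checks the deletion. Across all genes the median correlation between arrays was 0.970 within knockouts 1 and 2, 0.977 within knockouts 3 and 4, 0.931 between the 2 knockout sets, 0.929 between knockouts 1 and 2 and controls, and 0.969 between knockouts 3 and 4 and controls.

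Of 13837 genes tested with limma, with part as a covariate and the replicate number as a random block, 10097 (73.0%) differed between the sets at an adjusted p (Benjamini-Hochberg) under 0.05. In knockouts 1 and 2, 4598 (33.2%) were higher and 5499 (39.7%) lower than in knockouts 3 and 4. The 8 arrays of one set lay wholly above the 8 of the other for 2251 genes higher in knockouts 1 and 2 (16.3%) and wholly below for 2700 (19.5%). The median difference over all genes was -0.04 (log2, knockouts 1 and 2 minus 3 and 4, as in all differences below). With so many genes called, the counts of each gene group are read against these shares. Without the block 9731 genes were called, and 8978 when the 4 parts of each number were averaged and 2 numbers compared with 2. By the sex calls above, the 4 parts of number 1 do not all share a sex, and neither do those of number 2. A number cannot stand for 1 embryo there, so neither the block nor the averages make this a comparison of embryos.

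Genes that mark young embryonic cells were among the largest rises. Lin28a encodes the RNA-binding protein that blocks let-7 maturation. Its level had a lowest, median and highest value of 6.31, 7.93 and 8.34 (log2) in knockouts 1 and 2, against 4.42, 4.63 and 5.44 in knockouts 3 and 4, and of 3.93, 4.61 and 4.87 in controls. All 8 arrays of the first group lay above the other 16, which were all under the detection filter of 6.07. Lin28a was higher by 2.88 ± 0.19 (log2 difference, SE, adjusted p = 1.66e-08); no fold is given, since the lower level is not above the filter. Trim71, a let-7 target and ubiquitin ligase that works in the same pathway, was at 9.13, 9.59 and 10.13 in knockouts 1 and 2, 6.27, 6.85 and 7.12 in knockouts 3 and 4, and 6.18, 6.41 and 6.97 in controls. It was 7.07-fold higher (2.82 ± 0.11, adjusted p = 4.26e-10). Igdcc3, a surface protein of the immunoglobulin family, was at 11.36, 11.99 and 12.23 in knockouts 1 and 2, 8.28, 9.08 and 9.62 in knockouts 3 and 4, and 7.61, 7.78 and 8.38 in controls, which makes it 7.57-fold higher (2.92 ± 0.15, adjusted p = 2.49e-09). Second probe sets of Trim71 and Igdcc3 rose as well, by 1.94 and 3.34. Lin28a is measured by 1 probe set.

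The whole list for this pathway moved mostly the same way. Of 17 measured genes of the Lin28 and let-7 timing list, 12 were higher and 3 lower, with a median difference of 0.73 against -0.04 over all genes. Without overlap, 9 were higher and 2 lower. Lin28a, Trim71 and Igdcc3, described above, are among the genes counted as higher here and add no further evidence. Sall4, a zinc finger factor of pluripotent cells, rose by 2.18 ± 0.17, Arid3b by 1.66 ± 0.08, Arid3a by 1.17 ± 0.06 and Nr6a1, a nuclear receptor of early embryos, by 1.05 ± 0.07. Dicer1, which cuts microRNA precursors, rose by 0.84 ± 0.04. The changes were smaller for the RNA-binding proteins Igf2bp1 (0.66 ± 0.07) and Igf2bp3 (0.73 ± 0.05), the chromatin protein Hmga2 (0.45 ± 0.06) and Dis3l2 (0.21 ± 0.05), the exonuclease that degrades let-7 precursors tailed under Lin28. Igdcc4 and Tut4, the enzyme that adds those tails, fell by 0.61 and 0.44. Imp3, a gene of ribosomal RNA processing that was listed although it is not part of this pathway, fell by 0.49. It is counted among the 17 genes, the 3 lower genes and the 2 lower without overlap. Mycn (-0.36 ± 0.16, adjusted p = 0.0607) and Ccnd2 (-0.04 ± 0.06, adjusted p = 0.515) did not pass the test. For 5 of these genes probe sets disagreed: 1 probe set of Igf2bp3 was lower by 2.37, 4 of Tut4 were higher by 1.15 to 2.46, those of Ccnd2 ran from -0.76 to 1.78, 1 of Igdcc4 was higher by 1.03 and 1 of Mycn by 0.29.

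The microRNAs were not measured on these arrays. Their mature sequences are shown because the genes above act on them or are known to be held down by them; capitals mark the seed, bases 2 to 8, which pairs with targets. Sequences are those of RefSeq (GRCm38.p6). Of the 1679 mature names given there, 11 carry the seed GAGGUAG, among them all 4 let-7 family members printed here. The microRNA miR-125b, which also targets Lin28a in mouse cells, has a different seed, CCCUGAG, carried by 5 of the names.
mmu-let-7a-5p: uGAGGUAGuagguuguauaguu
mmu-let-7g-5p: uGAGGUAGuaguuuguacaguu
mmu-let-7i-5p: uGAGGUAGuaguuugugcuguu
mmu-miR-98-5p: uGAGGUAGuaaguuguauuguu
mmu-miR-125b-5p: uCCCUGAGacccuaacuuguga
The let-7a copy shown lies at chr13:48538239-48538260 (minus strand), let-7g at chr9:106178846-106178867 (plus), let-7i at chr10:122985698-122985719 (minus), miR-98 at chrX:151913229-151913250 (plus) and the miR-125b copy at chr9:41581940-41581961 (plus).

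**Figure D2:**
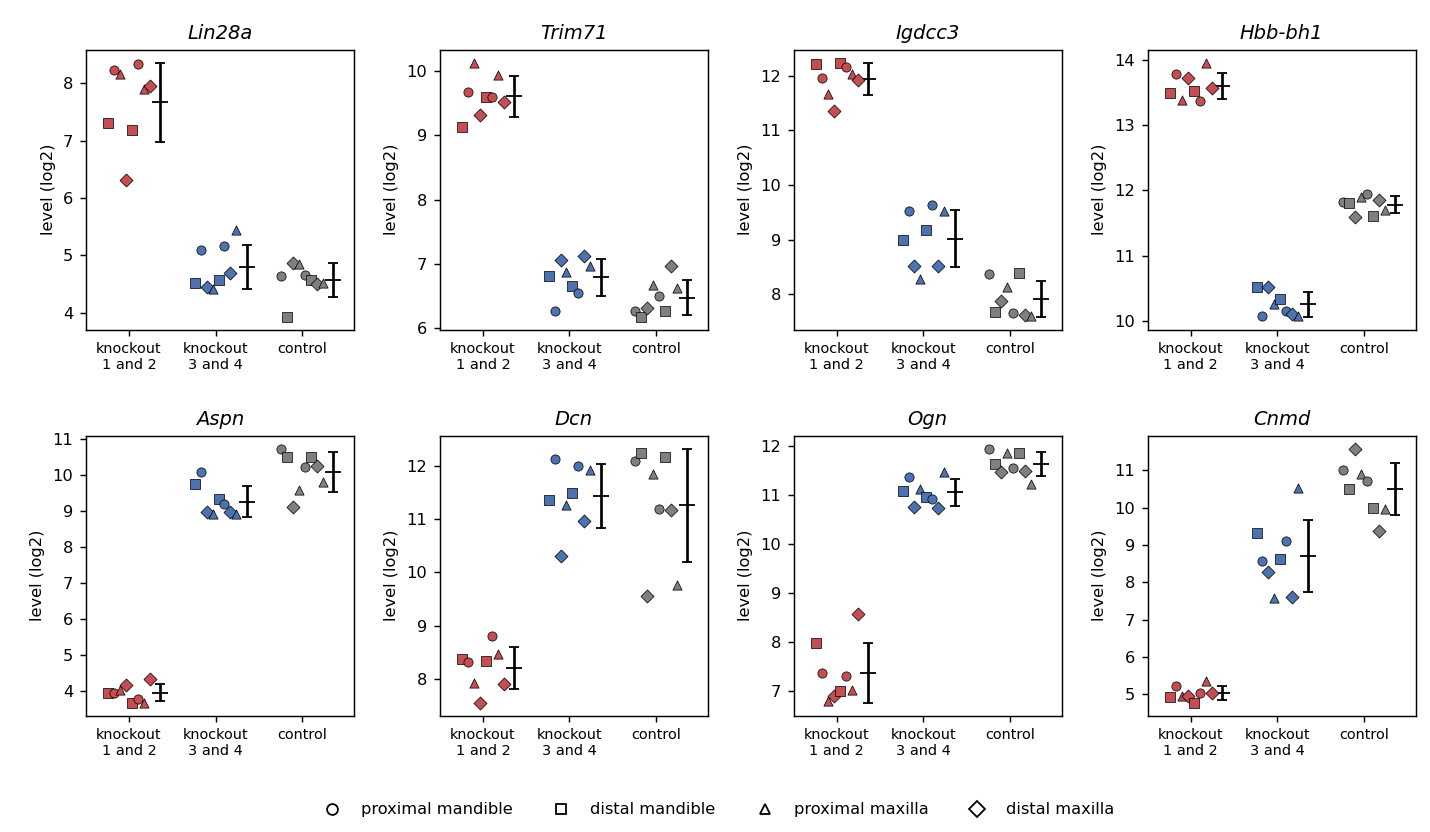
Log2 level of 8 genes on each of the 24 arrays (marker shape gives the part), with the mean ± SD of the 8 arrays of each group. The 4 genes of the upper row were higher in knockouts 1 and 2 on all 8 arrays than on any other array, by 2.82 to 3.35 against knockouts 3 and 4; the 4 genes of the lower row were lower on all 8, with differences from -3.22 to -5.30.

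Embryonic globin and other red cell genes were also higher. Hbb-bh1, the beta-like globin of the earliest primitive red cells, had the largest rise of all, 10.2-fold (3.35 ± 0.09, adjusted p = 2.47e-11). It was at 13.36, 13.55 and 13.96 (log2; lowest, median, highest) in knockouts 1 and 2, 10.07, 10.20 and 10.52 in knockouts 3 and 4, and 11.59, 11.81 and 11.95 in controls. The 3 groups did not overlap, and the controls lay between the knockout sets. Hba-x, the embryonic alpha-like globin, rose by 1.14 ± 0.08, and Hbb-y, an embryonic beta-like globin near the top of the scale at 14.62 (median) in knockouts 1 and 2 and 14.14 in knockouts 3 and 4, rose by 0.47 ± 0.05. Of 6 adult globins in the list only 2 were measured, both dim beside the embryonic ones, and they changed in opposite directions. Hba-a2 fell by 2.14 ± 0.13, with medians of 5.16 in knockouts 1 and 2, 7.40 in knockouts 3 and 4 and 5.85 in controls. It was under the detection filter on all 8 arrays of knockouts 1 and 2. Hbb-b2 rose by 0.76 ± 0.08, averaging 7.63 in knockouts 1 and 2 and 6.87 in knockouts 3 and 4. A second Hbb-b2 probe set did not pass the test (0.82, limma adjusted p = 0.071). Globin genes resemble one another in sequence, so signal shared between them cannot be separated here.

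Of 12 measured red cell genes 11 were higher, none lower, and all 11 were free of overlap; their median difference was 1.49. Slc4a1, the anion exchanger of the red cell membrane, was at 10.67, 11.64 and 12.14 in knockouts 1 and 2, 8.24, 8.49 and 8.91 in knockouts 3 and 4, and 8.63, 8.89 and 9.02 in controls, an 8.41-fold rise (3.07 ± 0.17, adjusted p = 6.07e-09). Rhag, the Rh-associated glycoprotein of the same membrane, rose by 2.91 ± 0.19, the blood group protein Ermap by 2.39 ± 0.17 and the transferrin receptor Tfrc by 0.60 ± 0.04, although a second Tfrc probe set was at -0.91. Kel, another blood group protein, rose by 3.05 ± 0.16. Alas2, which makes haem in red cells and served as a marker of them, ran from 9.65 to 11.14 in knockouts 1 and 2, 7.88 to 8.995 in knockouts 3 and 4, and 8.22 to 8.91 in controls. In whole tissue, more blood cells and more RNA of a kind per blood cell cannot be told apart, and this holds for every cell type below.

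The starts of 3 of these genes are shown, because embryonic globin and haem genes moved together in the same arrays; they are the 250 bases before the RefSeq start (GRCm38.p6), with GATA and CACCC on either strand in capitals, which are the letters read by erythroid GATA and Klf factors. Of 32851 such windows 53.6% hold GATA, 52% hold CACCC and 25.2% hold both, so a match describes the window and no more.
Hba-x: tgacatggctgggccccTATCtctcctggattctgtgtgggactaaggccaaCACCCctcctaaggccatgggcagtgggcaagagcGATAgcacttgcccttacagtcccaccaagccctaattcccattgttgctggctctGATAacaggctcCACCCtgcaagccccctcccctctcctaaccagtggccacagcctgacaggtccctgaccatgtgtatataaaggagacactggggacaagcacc
Hbb-y: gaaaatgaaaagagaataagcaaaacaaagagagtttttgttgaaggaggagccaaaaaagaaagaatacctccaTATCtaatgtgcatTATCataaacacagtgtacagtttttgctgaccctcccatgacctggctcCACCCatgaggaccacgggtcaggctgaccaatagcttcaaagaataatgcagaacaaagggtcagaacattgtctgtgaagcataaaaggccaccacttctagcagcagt
Alas2: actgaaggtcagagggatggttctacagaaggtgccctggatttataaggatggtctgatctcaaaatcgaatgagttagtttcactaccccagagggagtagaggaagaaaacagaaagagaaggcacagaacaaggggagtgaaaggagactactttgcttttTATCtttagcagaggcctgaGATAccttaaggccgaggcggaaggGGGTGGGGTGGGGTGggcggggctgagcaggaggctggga
They lie at chr11:32276350-32276599 (plus strand), chr7:103853208-103853457 (minus) and chrX:150547167-150547416 (plus). The windows of Hba-x, Hbb-y and Alas2 hold 3, 2 and 2 matches to GATA and 2, 1 and 3 to CACCC.

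The other large rises outside these lists were Epop (2.38 ± 0.09), a partner of the Polycomb repressor, Chd7 (2.34 ± 0.11), a chromatin remodeller needed in the neural crest, Sgip1 (2.18 ± 0.22), which acts in endocytosis, and Tent5c (2.18 ± 0.24), a poly-A polymerase. Chd7 had medians of 10.81 in knockouts 1 and 2, 8.44 in knockouts 3 and 4 and 8.45 in controls. The other, dimmer probe sets of Sgip1 did not pass the test, at -0.24 each (limma adjusted p = 0.162 and 0.140).

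Several of the largest falls were genes of extracellular matrix proteins. Aspn (asporin), a small leucine-rich proteoglycan that binds collagen, was at 3.68, 3.96 and 4.34 (log2; lowest, median, highest) in knockouts 1 and 2, 8.91, 9.08 and 10.07 in knockouts 3 and 4, and 9.10, 10.24 and 10.73 in controls. It was lower with a difference of -5.30 ± 0.15 (adjusted p = 2.47e-11), and its level in knockouts 1 and 2 was under the detection filter on all 8 arrays. Dcn (decorin), of the same family, was at 7.55, 8.33 and 8.81 in knockouts 1 and 2, 10.31, 11.42 and 12.13 in knockouts 3 and 4, and 9.56, 11.52 and 12.25 in controls, 9.29-fold lower (-3.22 ± 0.13, adjusted p = 7.26e-10). Ogn (osteoglycin) was 12.9-fold lower (-3.68 ± 0.21) and Lum (lumican) 8.12-fold (-3.02 ± 0.25). Kera (keratocan) was lower as well (-3.59 ± 0.17). It averaged 5.30 in knockouts 1 and 2, under the detection filter, so no fold is given. Of 12 measured proteoglycans of this family 9 were lower and 1 higher, with a median of -1.64.

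Tendon, bone and cartilage lists share members with that family (Aspn and Kera with tendon, Omd with bone), and so are not separate evidence. Of 12 tendon genes 11 were lower and none higher (median -2.01): Thbs2, a matrix glycoprotein, fell by 2.85 ± 0.14 and the collagen gene Col12a1 by 1.99 ± 0.12. Of 13 bone genes 10 were lower and 1 higher (median -0.73). Col1a1, the main collagen of bone, fell by 1.25 ± 0.12 and Omd (osteomodulin) fell by 1.46 ± 0.19, while Pth1r, the parathyroid hormone receptor, rose by 0.73 ± 0.08. A second Col1a1 probe set did not pass the test (-0.17, limma adjusted p = 0.179). It averaged 10.48 in knockouts 1 and 2, 10.65 in knockouts 3 and 4 and 12.10 in controls. Of 18 cartilage genes 10 were lower and none higher (median -0.63): Cnmd (chondromodulin), a matrix protein that keeps cartilage free of vessels, was at 4.77, 5.00 and 5.36 in knockouts 1 and 2, 7.59, 8.60 and 10.53 in knockouts 3 and 4, and 9.38, 10.60 and 11.58 in controls (-3.67 ± 0.30), again under the detection filter on all 8 arrays of knockouts 1 and 2. Matn4, Col9a3 and Sox6 fell by 1.72, 1.26 and 0.76.

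The brightest probe sets of the master factor of cartilage and of its main collagen did not pass the test. Sox9 ran from 8.13 to 10.53 in knockouts 1 and 2, 8.76 to 9.92 in knockouts 3 and 4 and 10.04 to 11.59 in controls (both genes were chosen after their values were seen). Col2a1 ran from 10.58 to 11.94, 10.60 to 12.24 and 11.22 to 13.13 in the same order of groups. A second, dimmer Sox9 probe set was lower, averaging 8.002 in knockouts 1 and 2, 8.68 in knockouts 3 and 4 and 9.46 in controls (-0.68, adjusted p = 0.0128).

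Among 31 collagens and other matrix genes 22 were lower and 5 higher (median -0.47). Lox, which cross-links collagen and elastin, fell by 2.46 ± 0.22, Eln (elastin) by 1.80 ± 0.11, Fbln5 (fibulin 5) by 1.78 ± 0.13 and Mfap2, a microfibril protein, by 0.81 ± 0.05. The other large falls were Agtr2 (-3.53 ± 0.39) and Enpep (-3.30 ± 0.19), a receptor and a peptidase of the angiotensin system, Gdf10 (-3.20 ± 0.20), a secreted factor of the TGF-beta superfamily, Egfl6 (-3.08 ± 0.23), Avpr1a (-3.01 ± 0.28) and Col8a1 (-2.90 ± 0.10). For 11 of the 12 tendon genes and 11 of the 12 proteoglycans the control mean was nearer to knockouts 3 and 4 than to knockouts 1 and 2, and so it was for 28 of the 31 matrix genes. The same held for 75% of all genes tested and 81.9% of those called.

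**Figure D3:**
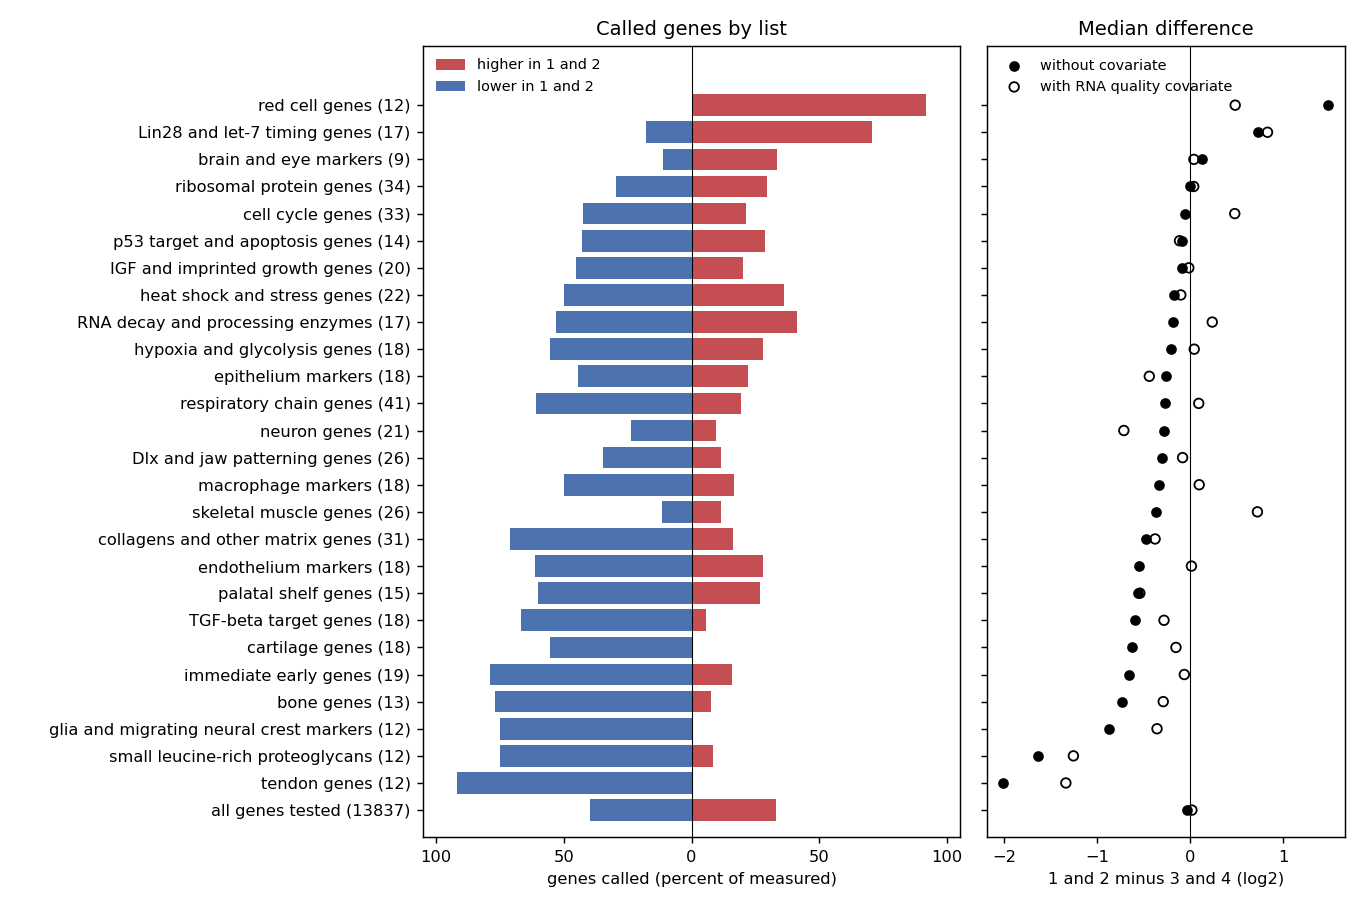
For lists with at least 5 measured genes: left, percent of the measured genes (number in brackets) that were higher (right of 0) or lower (left of 0) in knockouts 1 and 2 than in knockouts 3 and 4; right, the median difference (log2) without (filled) and with (open) the 3′ excess as a covariate. All genes tested stand at the bottom; red cell and timing genes have the highest medians (1.49 and 0.73) and tendon genes and proteoglycans the lowest (-2.01 and -1.64).

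Genes of palate formation and TGF-beta signalling were mostly lower. Of 15 palatal shelf genes 9 were lower and 4 higher (median -0.56). Osr2, a zinc finger factor of the palatal mesenchyme, was at 6.36, 7.75 and 8.47 in knockouts 1 and 2, 8.89, 9.73 and 10.48 in knockouts 3 and 4, and 9.47, 10.03 and 10.54 in controls (difference -2.15 ± 0.20, adjusted p = 3.1e-07). Tgfb3, the ligand needed for palate fusion, fell by 0.97 ± 0.08 and Pax9 by 0.56 ± 0.08, while the ephrin Efnb1 rose by 0.43 ± 0.05. Of 18 TGF-beta target genes 12 were lower and 1 higher (median -0.59), although the targeted receptor carries the same label in both sets: Ccn1 fell by 1.55 ± 0.12, Tagln, a smooth muscle protein, by 1.13 ± 0.09 and the repressor Tgif1 by 0.96 ± 0.10. Another 2 probe sets of Ccn1 were higher, by 0.39 and 0.49. Of 26 Dlx and jaw patterning genes 9 were lower, 3 higher and 14 not called (median -0.30).

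Immediate early genes, which cells switch on within minutes of a stimulus, included 15 lower and 3 higher of 19 measured (median -0.65). Fosl2 fell by 1.41 ± 0.08, Fos by 1.15 ± 0.08 and Zfp36, which speeds mRNA decay, by 1.15 ± 0.11; a second Fosl2 probe set was higher by 0.22. With the 3′ excess as a covariate the median of the list was -0.062, Fos was at -0.40 (adjusted p = 0.276) and Zfp36 at -0.29 (adjusted p = 0.631), while Fosl2 passed at -1.60. Within knockouts 1 and 2 the slope of Fos on the 3′ excess was -0.78 (log2 per log2 unit). The part of RNA quality in these falls was not tested. Among 22 heat shock and stress genes 11 were lower and 8 higher (median -0.18), with Gadd45b lower by 1.61 ± 0.10, Hspa1b by 1.47 ± 0.10 and Herpud1 by 1.04 ± 0.07. Among 17 RNA decay and processing enzymes 9 were lower and 7 higher: Upf1, the helicase of nonsense-mediated decay, rose by 1.33 ± 0.07 and Xrn1, the 5′ exonuclease, fell by 0.92 ± 0.08.

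The 41 respiratory chain genes had 25 lower and 8 higher (median -0.27), with Uqcrfs1 of complex III lower by 1.15 ± 0.11 and Ndufa9 of complex I by 0.99 ± 0.09. With the 3′ excess as a covariate their median was 0.093. The 34 ribosomal protein genes had 10 lower and 10 higher (median 0.00). Of 33 cell cycle genes 14 were lower and 7 higher (median -0.05): the replication licensing factor Cdt1 rose by 0.79 ± 0.04 and Mcm5 by 0.45 ± 0.04, while the inhibitor Cdkn2c fell by 1.49 ± 0.12. Among 18 hypoxia and glycolysis genes 10 were lower and 5 higher, with Pfkl higher by 1.15 ± 0.08, Slc2a1 by 0.69 ± 0.06 and P4ha1 lower by 0.70 ± 0.07. The 14 p53 target genes had 6 lower and 4 higher (median -0.08), and the 20 IGF and imprinted growth genes 9 lower and 4 higher (median -0.09), among them Igfbp3, lower by 1.15 ± 0.13, and Meg3, higher by 0.85 ± 0.13.

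Markers of other cell types in the pieces were measured beside these groups. Of 18 endothelium markers 11 were lower and 5 higher (median -0.55). Sox18 fell by 2.34 ± 0.18, Emcn by 2.06 ± 0.23, Erg by 1.60 ± 0.12 and Pecam1 by 1.15 ± 0.11; Pecam1 ran from 7.49 to 8.45 in knockouts 1 and 2, 8.94 to 9.35 in knockouts 3 and 4, and 8.96 to 9.51 in controls. Within knockouts 1 and 2, 15 of the 18 slopes of this list on the 3′ excess were negative (median -0.56), and none was called. Over all genes tested 6944 slopes were negative and 6893 positive. With the covariate the median difference was 0.014 and no member was called. Emcn was then at 0.33, Pecam1 at -0.051, Sox18 at -0.67 and Erg at -1.54. A comparison described below kept only arrays of knockouts 1 and 2 with an excess under 1. There the median was -0.26, and Sox18 (-2.03), Erg (-1.59), Emcn (-1.36) and Pecam1 (-0.73) were each called. The part of RNA quality in these falls was not tested. Of 12 glia and migrating crest markers 9 were lower and none higher (median -0.87), with Cdh19 lower by 1.26 ± 0.18 and Foxd3 by 0.76 ± 0.10. Of 18 macrophage markers 9 were lower and 3 higher (median -0.33), and of 18 epithelium markers 8 lower and 4 higher (median -0.26), with Krt17 lower by 2.14 ± 0.20 and Grhl2 higher by 0.54 ± 0.07.

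Among 26 muscle genes 3 were higher, 3 lower and 20 not called, and among 21 neuron genes 2 were higher, 5 lower and 14 not called. Their mean levels varied widely within each set, with muscle between 6.36 and 9.49 in knockouts 1 and 2, 6.13 and 10.14 in knockouts 3 and 4, and 6.45 and 10.44 in controls. Of 9 brain and eye markers 3 were higher and 1 lower. The part of cell makeup in the differences above was not tested.

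The set difference was measured in each part with 2 arrays against 2. In the proximal mandible 5885 genes (42.5%) were called, in the distal mandible 7164 (51.8%), in the proximal maxilla 5024 (36.3%) and in the distal maxilla 5685 (41.1%). Leaving out 1 replicate number gave 1486 to 5844, 3304 to 6915, 899 to 5316 and 1101 to 7164 in the same order of parts, with the lowest counts without number 3 or 4. Of the 10097 genes called over all parts, 9359 (92.7%) had the same direction in all 4 parts, a share to which the choice of called genes contributes. The difference of Aspn was -5.75 in the proximal mandible, -5.72 in the distal mandible, -5.05 in the proximal maxilla and -4.70 in the distal maxilla. Lin28a was higher by 3.16, 2.70, 3.10 and 2.56 in the same order of parts, and Hbb-bh1 by 3.47, 3.08, 3.51 and 3.33. The interaction test did not call a dependence on part for any of these 3 genes (limma adjusted p = 0.419, 0.965 and 0.89).

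The interaction test called 139 genes (1.00%; 1386 at an unadjusted p under 0.05). The 5 with the smallest p set the mandible ends apart, and the number called ran from 14 to 382 when 1 replicate number was left out. Hoxa2, a transcription factor of the arch behind the jaw, was at 4.24 and 5.44 in the proximal mandible of knockouts 1 and 2, against 9.88 and 9.80 in knockouts 3 and 4. In controls it was at 9.92 and 4.05 there and at 5.10 and 9.93 in the distal mandible, so that the control arrays of number 2 ran against those of number 1. Control values are used here only over all 8 arrays.

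The distal mandible of knockouts 1 and 2 also stood apart. Myh6, a heart muscle myosin, was at 6.75 and 6.77 there, against 3.74 and 3.82 in knockouts 3 and 4. Emx2, a homeobox factor, was at 5.54 and 4.68 against 8.96 and 8.89, and the noncoding RNA gene Pantr1 at 6.81 and 6.65 against 9.66 and 9.65. Foxa1, a factor of endoderm, was at 9.42 and 9.33 there, against 5.17 and 5.62. A difference in where the pieces were cut was not tested. Without the 4 distal mandible arrays 8957 genes were called (3997 higher, 4960 lower), and 1 named gene turned round, Foxa1, with a difference of -1.13.

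The RNA quality measure was then followed within knockouts 1 and 2, where the set cannot differ. On these 8 arrays the slope of each gene's level on the 3′ excess, with part as a covariate and 3 residual degrees of freedom, passed the test for 1 gene (0.00723%; 4038 at an unadjusted p under 0.05). The count was 1732 with a trend in the variance and 356 with the beta-actin excess alone, so it depends strongly on these settings. With part as a covariate, the slope compares number 1 with number 2 within each part. It rests mainly on the maxilla, where numbers 1 and 2 had an excess of 0.78 and 1.13 (proximal) and 1.498 and 0.71 (distal). In the mandible the excess was 1.17 and 1.08 (proximal) and 1.34 and 1.35 (distal). In both maxilla parts the array of lower excess was called female and the other male. Excess, sex and embryo cannot be told apart there. The 1 gene called with the average excess and no trend was Rpf1, a ribosome biogenesis factor, with a slope of -2.49 ± 0.16 (log2 per log2 unit). Its level was 8.54 and 8.42 on the 2 arrays with the lowest excess and 6.56 on the array with the highest, against 9.78 to 10.13 in knockouts 3 and 4 and 9.70 to 9.99 in controls. The set difference of Rpf1 was -2.46 ± 0.21, and a second probe set of the gene was higher by 0.84.

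Across genes the slope had the same sign as the set difference for 74.9% of all genes and 81% of those called (Pearson r 0.58 and Spearman rho 0.64 over 13837 genes, which share arrays and are not independent; r 0.67 and rho 0.71 over the 10097 called). The gene groups differed in this. Over all genes tested 6893 slopes were positive and 6944 negative. All 12 red cell genes had a positive slope, with a median of 1.22 beside a median difference of 1.49, and 34 of 41 respiratory chain genes had a negative one (median -0.33, beside -0.27). In the timing list 11 of 17 slopes were negative and 6 positive, which is not far from the split over all genes. Their median was -0.29, beside a median difference of 0.73. The slope of Lin28a was -1.85 ± 0.25: within knockouts 1 and 2 it was lowest (6.31) on the array with the highest excess. Aspn (-0.32 ± 0.25) and Dcn (-0.18 ± 0.40) had slopes smaller than their differences, as did Cnmd (0.11 ± 0.26). Aspn and Cnmd were under the detection filter on all 8 arrays of knockouts 1 and 2. Their slopes there cannot show whether their RNA changed with the excess.

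**Figure D4:**
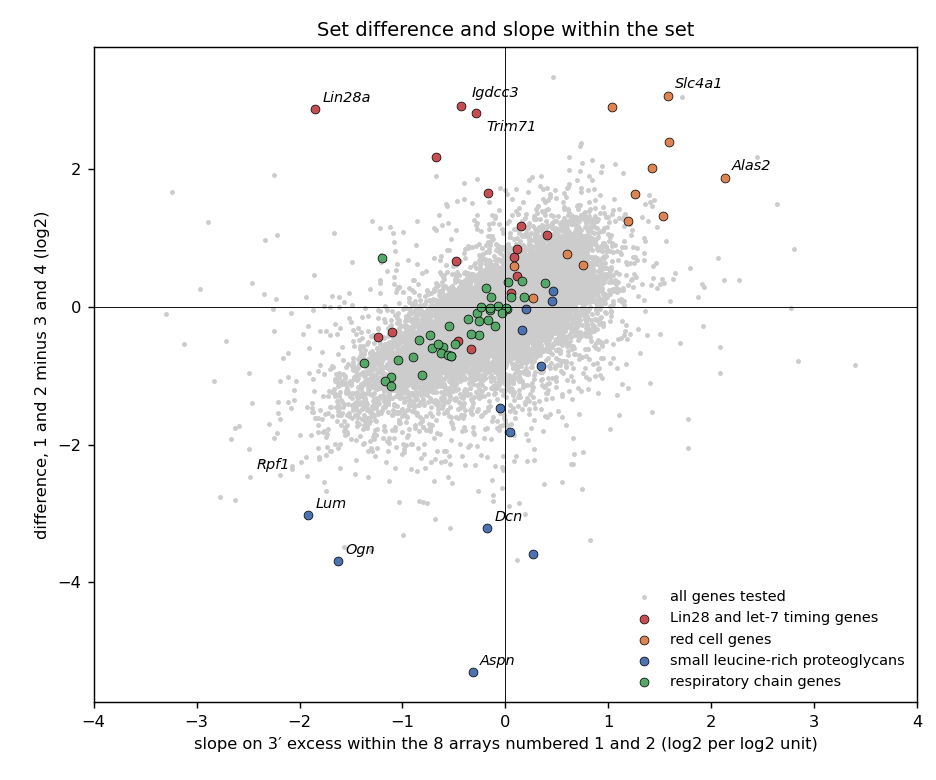
For each gene tested, the set difference (log2, vertical) against the slope of its level on the 3′ excess within the 8 arrays of knockouts 1 and 2 (log2 per log2 unit, horizontal), with 4 lists coloured; 6 genes with slopes beyond 4 in size lie outside the axis. Most red cell genes lie at the upper right, Lin28a at the upper left with a slope of -1.85, and Aspn at the bottom near a slope of 0. In knockouts 1 and 2 Aspn was under the detection filter.

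**Figure D5:**
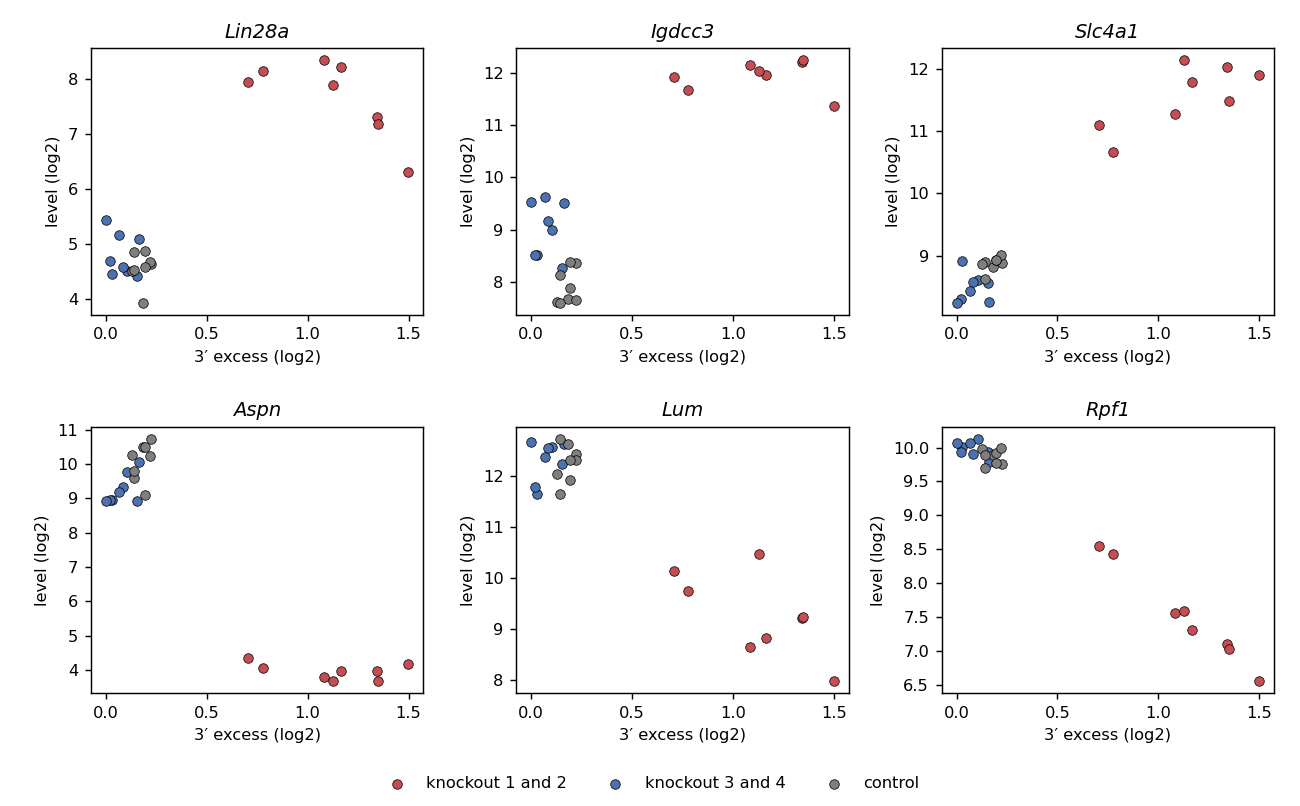
Log2 level of 6 genes against the 3′ excess of each of the 24 arrays, coloured by group. Rpf1 falls with the excess within knockouts 1 and 2 (slope -2.49), and Slc4a1 is higher where the excess is higher (1.58, not called). Aspn lies between 3.68 and 4.34 at every excess from 0.71 to 1.498, under the detection filter throughout.

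With the 3′ excess as a further covariate over the 16 arrays, 592 genes were called (4.28%; 3056 at an unadjusted p under 0.05), 357 higher and 235 lower, and 459 of them were called in the same direction without it. The covariate and the set overlap so closely that the median standard error was 0.219 with it and 0.0744 without it, so a gene lost here is not shown to have no difference. Lin28a (4.86 ± 0.35, adjusted p = 8.18e-05), Trim71 (3.38 ± 0.37), Igdcc3 (3.38 ± 0.51), Hbb-bh1 (3.12 ± 0.33), Aspn (-4.93 ± 0.54), Dcn (-3.13 ± 0.47), Kera (-3.81 ± 0.63) and Col8a1 (-3.23 ± 0.36) passed. Aspn was under the detection filter on every array of knockouts 1 and 2, so its level there had little room to move with the excess. Of the 12 largest rises 6 passed, and of the 12 largest falls 7. The timing list kept a median of 0.83 with 9 genes called higher and none lower, while the red cell median was 0.49 with 1 gene higher. Slc4a1 (1.64 ± 0.50, adjusted p = 0.0794) and Lum (-1.02 ± 0.70, adjusted p = 0.419) did not pass, and Rpf1 was at 0.10 ± 0.18.

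A comparison added after the data were examined took only the 2 arrays of knockouts 1 and 2 with an excess under 1, of mean excess 0.74, against the 4 arrays of knockouts 3 and 4 from the same 2 parts, of mean excess 0.051. It called 4108 genes, 1707 higher and 2401 lower, of which 4011 were called in the same direction over all arrays. Lin28a was higher by 3.31 ± 0.29, Trim71 by 2.82 ± 0.19, Hbb-bh1 by 3.25 ± 0.14 and Igdcc3 by 3.07 ± 0.37. Aspn was at -4.74 ± 0.09 and Dcn at -3.20 ± 0.33. The red cell median was 1.04, that of tendon genes -1.75, that of the proteoglycans -1.90 and that of the respiratory chain -0.10. Rpf1 was at -1.498 ± 0.09. The 2 arrays still had more 3′ excess than the 4, and both were called female.

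Probe sets of the same gene could differ in direction. Of 6673 genes with several measured probe sets, 29.2% had some called higher and others called lower, and the median span of the differences within a gene was 0.72. The genes were also split into 3 groups of equal size by the length of their span in the genome: in the group of longest span 27% were higher and 46.9% lower, against 37.1% higher and 33.7% lower in the group of shortest span. The part of RNA quality in the set difference of any single gene was not tested beyond the values given, and developmental stage has no measure here apart from the genes themselves and the label, which is the same in both sets.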

How the data were processed

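The files hold log2 values per probe set, deposited by the authors. The submitters' processing notes name RMA; its version is not given in the sources used here. Scanner files were not used here. RMA fits background, quantile normalization and probe effects over all arrays together, so it gives the sets a common distribution of values. The table has 45101 probe sets, 64 of them array controls; 34945 have 1 gene symbol in the platform annotation, 932 several and 9160 none. Each gene was represented by its brightest probe set over the 24 arrays, and kept when above the 40th percentile of all values (log2 6.07) on at least 2 arrays, which left 13837 of 18193 genes. Arrays have no read depth; their number and the signal over background limit the precision.

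Tests used limma 3.58.1 on R 4.3.3 (2-sided, Benjamini-Hochberg over all genes tested, threshold 0.05). The comparison of the sets had part as a covariate and the replicate number as a random block. The estimated block correlation was -0.05. Data simulated once, with no block effect and 200 changed genes of 13837, also gave -0.05. With the block there were 32 false calls beside 180 true ones (15.1% of calls false). Without it there were 15 and 177 (7.81%), and for averaged numbers 8 and 110. In that setting the block made the test somewhat liberal, and the counts without it are printed. These shares do not carry over to the data, where 73.0% of genes were called. Arrays that share an embryo were not simulated. Parts were contrasts of 1 fit with an F test of the interaction.

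Named genes were the 12 largest rises and falls without overlap between the sets, all measured timing and globin genes, the 4 smallest p of every other list, the 5 smallest interaction p, the called slope gene and Tgfbr1; any other is said to be chosen later. The sets, lists and tests were chosen with earlier results of these data known. Alternatives were other normalizations, filters, probe set rules, covariates and arrays left out.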

Additional observations from a re-analysis of the deposited data

Results flagged for a closer look

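Of 278 groups of 8 arrays examined, each 1 gene or array measure in 1 knockout set, 9 held an array far from the other 7, where chance gives about 1 in 20. In knockouts 1 and 2 these were Grhl2 (10.27, next 9.71), Fos (6.51, next 7.13) and Sesn2 (8.66, next 8.39) on the distal maxilla of number 1, which has the highest 3′ excess, Tgfb3 (8.74, next 8.59) on the distal mandible of number 1, Hspa1b (7.96, next 8.28) on the proximal mandible of number 1 and Xrn1 (8.16, next 7.70) on the proximal maxilla of number 1. In knockouts 3 and 4 they were Emcn (10.42, next 9.73) on the proximal maxilla of number 4, Pkm (12.60, next 12.82) on the proximal maxilla of number 3 and Igf1r (10.65, next 10.84) on the proximal mandible of number 3.

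The limma interaction test called the 5 genes named for its smallest p, and also genes named for other reasons. These were Cdh6 (adjusted p = 0.00894), Krt17 (0.00981) and Stmn2 (0.0202). The difference of Krt17 was -0.84 in the proximal mandible and -2.79 in the distal mandible. The values that follow are for the 5 genes with the smallest p. The span between the largest and the smallest of the 4 part differences was 6.88 (log2) for Hoxa2, 5.68 for Foxa1, 3.87 for Emx2, 3.38 for Pantr1 and 2.95 for Myh6.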

How the results depend on the processing

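The count for knockout arrays numbered 1 and 2 against 3 and 4 (10097) was 9731 with no replicate block and 8961 to 10417 when 1 number was left out. It was 592 (357 higher, 235 lower) with the RNA quality covariate and 4108 (1707 and 2401) on the arrays with low 3′ excess, where fewer arrays entered. Scaling moved the split: of the calls 45.5% were higher as reported, 39.9% with arrays centred on their medians (3897 higher, 5874 lower) and 54.7% after a second quantile normalization (5697 and 4720). Leaving out 1 number left 1486 to 5844 genes in the proximal mandible, 3304 to 6915 in the distal mandible, 899 to 5316 in the proximal maxilla, 1101 to 7164 in the distal maxilla and 14 to 382 in the interaction, the low end always without number 3 or 4; the lone array is then assumed to vary like the others. The slope count of 1 became 1732 with a trend in the variance and 356 with beta-actin alone. Directions turned as follows, and the cause was not tested. With the mean of all probe sets: Igf2bp3 -0.088, Tut4 1.15, Ccnd2 0.31, Tfrc -0.22 and the neuron median 0.19. With the RNA quality covariate: Tut4 0.80, Foxd3 0.074, Pax6 -0.19, Emx2 0.42, Six3 -0.19, Emcn 0.33, Mrc1 0.62, Prrx1 0.17, Uqcrfs1 0.062, Igf1r -0.026, Myh6 -0.36, Pantr1 0.25, Rpf1 0.10, and the medians of muscle 0.72, endothelium 0.014, macrophage 0.10, respiratory chain 0.093, hypoxia 0.044 and RNA decay 0.24. With the stricter filter the brain and eye median was -0.59. Leaving out 1 number, list medians ran from -0.98 to 0.25 for muscle, -0.39 to 0.071 for neurons and -0.064 to 0.28 for brain and eye. On low-excess arrays Foxa1 was -1.40 and the muscle median 0.18, and without the distal mandible Foxa1 was -1.13. The last 2 settings were chosen after seeing the data. Signal over background limits the differences of Aspn, Cnmd, Omd, Hba-a2, Lin28a and Rhag, which were under the detection filter on all arrays of 1 set. It also limits those of genes that only averaged under the filter in 1 set. Among these were Kera, Agtr2, Enpep, Avpr1a and Cdh19 in knockouts 1 and 2, and Kel and Ermap in knockouts 3 and 4.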

Other observations

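Among 4874 probe sets with no gene symbol or several, which entered none of the tests above, 3782 (77.6%) were called between the 2 knockout sets, against 73.0% of the named genes. The quality probe sets for 18S ribosomal RNA, which carries no poly-A tail, also set the groups apart in their means: the 3′ probe set averaged 9.50 ± 0.56 in knockouts 1 and 2, 12.74 ± 0.79 in knockouts 3 and 4 and 11.42 ± 1.08 in controls (log2, SD, n = 8 each). The pyruvate carboxylase probe sets had a 3′ excess of 2.70 ± 0.24, 1.90 ± 0.13 and 2.15 ± 0.18 in the same order of groups.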
